A study of Homo sapiens with 60 samples.

Results

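A list of 40 genes of glycolysis and of the response to low oxygen was described in HEK293A cells that carry a TDP1 knockout. Members were the rows of a deposited count table whose Ensembl identifiers map to the listed symbols, and all 40 were found among the 58395 genes of the table. All 40 also passed the filter on low counts that left 18985 genes for testing, so no member was lost to it. HEK293A is a line of human embryonic kidney cells. TDP1 is the tyrosyl-DNA phosphodiesterase that removes trapped topoisomerase 1 (TOP1) from DNA ends. Topotecan is a TOP1 poison, and OL9-119 is a compound known here by its code name alone.

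The groups were topotecan at 100 nM with OL9-119 at 5 uM (for this combination the label names no DMSO), OL9-119 at 5 uM dissolved in 0.1% DMSO, topotecan at 100 nM with 0.1% DMSO, 0.1% DMSO alone, and no treatment. Each exposure lasted 5 to 5.5 hours. Every group was made in 3 knockout clones, C6, F7 and G6, with 4 replicates that the labels call biological without saying how the cultures were kept apart, which gave 15 groups and 60 libraries. All groups share the TDP1 knockout and growth in DMEM/F12 with 10% fetal bovine serum. Each clone is a single clonal line, and wild-type cells were not analysed here.

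Libraries held 4.62 to 20.9 M counts (median 11.4 M). In 14 libraries, fewer than 20000 genes were detected after thinning to 4.5 M counts, 10 of them from clone C6, 4 from G6 and 0 from F7. By treatment these were 4 combination, 3 OL9-119, 2 topotecan, 3 DMSO and 2 untreated libraries. All 9 markers of this kidney line averaged at least 1 CPM (counts per M of the scaled library total), with a summed level of 1420 to 2390 CPM. The 5 blood markers summed to 1.02 to 7.53 CPM, the 5 endothelial and fibroblast markers to 15.3 to 45.9 CPM, and the 3 hepatocyte markers to 0 to 1.29 CPM. TDP1 itself was counted at 17.8 to 42.2 CPM in all libraries. A count over the whole gene does not check a knockout made by cutting coding exons. Among these bulk samples, fewer cells with a transcript and less RNA per cell cannot be told apart.

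As background, glycolysis turns glucose into pyruvate. Glucose enters through transporters of the SLC2A family, is trapped by hexokinases, is committed by phosphofructokinase, and leaves as lactate through lactate dehydrogenase and the SLC16A carriers. When oxygen is scarce, the prolyl hydroxylases EGLN1 and EGLN3 no longer mark HIF1A and EPAS1 (HIF-2alpha) for breakdown, and these factors raise the transcription of many glycolytic genes and of VEGFA, ADM, BNIP3, NDRG1, ANKRD37 and CA9. They bind short DNA motifs with the core ACGTG or GCGTG. EGLN3 is itself a target of these factors, so its transcript is often read as part of the response.

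Promoter windows are shown for 4 of the hypoxia-responsive members that stood high in 2 untreated libraries of clone G6. They were chosen after the values were seen. Each window runs from 250 bases before to 50 after a RefSeq transcription start (GRCh38.p14), is written 5′ to 3′ on the strand of the gene, and has the ACGTG or GCGTG cores of either strand in capitals. On the opposite strand these cores read CACGT or CACGC, and CACGTG holds a core on each strand. ANKRD37, an ankyrin repeat protein, has 3 cores in chr4:185396591-185396890 (+ strand). BNIP3, a mitochondrial autophagy receptor, has 6 in chr10:131981874-131982173 (− strand). LDHA, the subunit of lactate dehydrogenase that favours lactate formation, has 6 in chr11:18394313-18394612 (+ strand). A second LDHA window, chr11:18396101-18396400, has 1 core and is not shown. PGK1, phosphoglycerate kinase, has 4 in chrX:78103998-78104297 (+ strand).
ANKRD37: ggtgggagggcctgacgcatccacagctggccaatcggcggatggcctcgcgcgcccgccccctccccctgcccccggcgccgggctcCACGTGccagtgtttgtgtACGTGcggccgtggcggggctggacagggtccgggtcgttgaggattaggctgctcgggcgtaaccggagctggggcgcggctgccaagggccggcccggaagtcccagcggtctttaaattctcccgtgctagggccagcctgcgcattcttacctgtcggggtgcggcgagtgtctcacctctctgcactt
BNIP3: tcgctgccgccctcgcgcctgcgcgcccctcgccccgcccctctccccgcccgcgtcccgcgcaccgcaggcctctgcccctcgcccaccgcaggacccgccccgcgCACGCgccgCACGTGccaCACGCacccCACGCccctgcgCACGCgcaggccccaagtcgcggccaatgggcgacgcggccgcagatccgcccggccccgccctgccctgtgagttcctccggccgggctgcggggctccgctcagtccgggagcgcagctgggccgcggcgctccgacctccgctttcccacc
LDHA: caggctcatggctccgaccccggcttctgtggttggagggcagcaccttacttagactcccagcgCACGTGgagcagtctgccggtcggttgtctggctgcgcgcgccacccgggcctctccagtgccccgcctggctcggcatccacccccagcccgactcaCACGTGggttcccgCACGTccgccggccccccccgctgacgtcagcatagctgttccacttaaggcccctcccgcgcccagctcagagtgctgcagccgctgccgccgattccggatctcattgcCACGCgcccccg
PGK1: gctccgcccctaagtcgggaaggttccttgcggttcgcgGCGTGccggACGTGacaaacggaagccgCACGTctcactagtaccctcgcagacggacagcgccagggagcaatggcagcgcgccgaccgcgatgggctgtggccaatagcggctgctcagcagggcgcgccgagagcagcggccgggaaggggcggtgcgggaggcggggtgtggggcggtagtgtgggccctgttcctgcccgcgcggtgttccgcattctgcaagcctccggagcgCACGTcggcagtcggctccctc
The RefSeq table held at least 1 window for 35 of the 40 members, and 32 of these had a core in some window. The other 3, EGLN3, P4HA2 and PGAM1, had none. Of these, EGLN3 also stood high in untreated G6 replicates 1 and 2. No window is shown for SLC2A3, SLC16A1, VEGFA, BNIP3L and NDRG1. A core on either strand was present in 67.7% of the members' 65 windows, against 54.8% of 21482 windows of protein-coding genes. At least 3 cores were present in 13.8% of member windows against 12.2%. ACGTG alone was present in 38.5% of member windows against 23.1% of all, and GCGTG in 43.1% of both. A match is a description of letters, not a binding site.

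Levels spanned a wide range. Per kilobase of exon, the most abundant members in DMSO were GAPDH (glyceraldehyde-3-phosphate dehydrogenase), at 526, 489 and 576 CPM per kb in C6, F7 and G6, and ENO1 (enolase), at 411, 367 and 435 CPM per kb. TPI1, LDHB, LDHA and PKM, which encode triose phosphate isomerase, both lactate dehydrogenase subunits and pyruvate kinase, came next. At the other end, CA9, a membrane carbonic anhydrase widely used as a marker of hypoxia, lay at 0.433, 0.130 and 0.0697 CPM per kb in C6, F7 and G6. CA9 was at 0 counts in 9 libraries and never above 21 counts, and 38.5% of its exon bases also lie in ARHGEF39 on the opposite strand. ALDOA, the muscle-type aldolase that is abundant in most cells, was listed at a mean of 3.41 CPM. On the same strand, 42.3% of its exon bases are shared with AC093512.2, and the gene is not interpreted further. ANKRD37 shares 35.2% of its exon bases with UFSP2 on the opposite strand, and the strand setting of the counting is not given in the sources used here. Levels per kilobase use all annotated exons and understate genes with long rare ones.

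**Figure D1:**
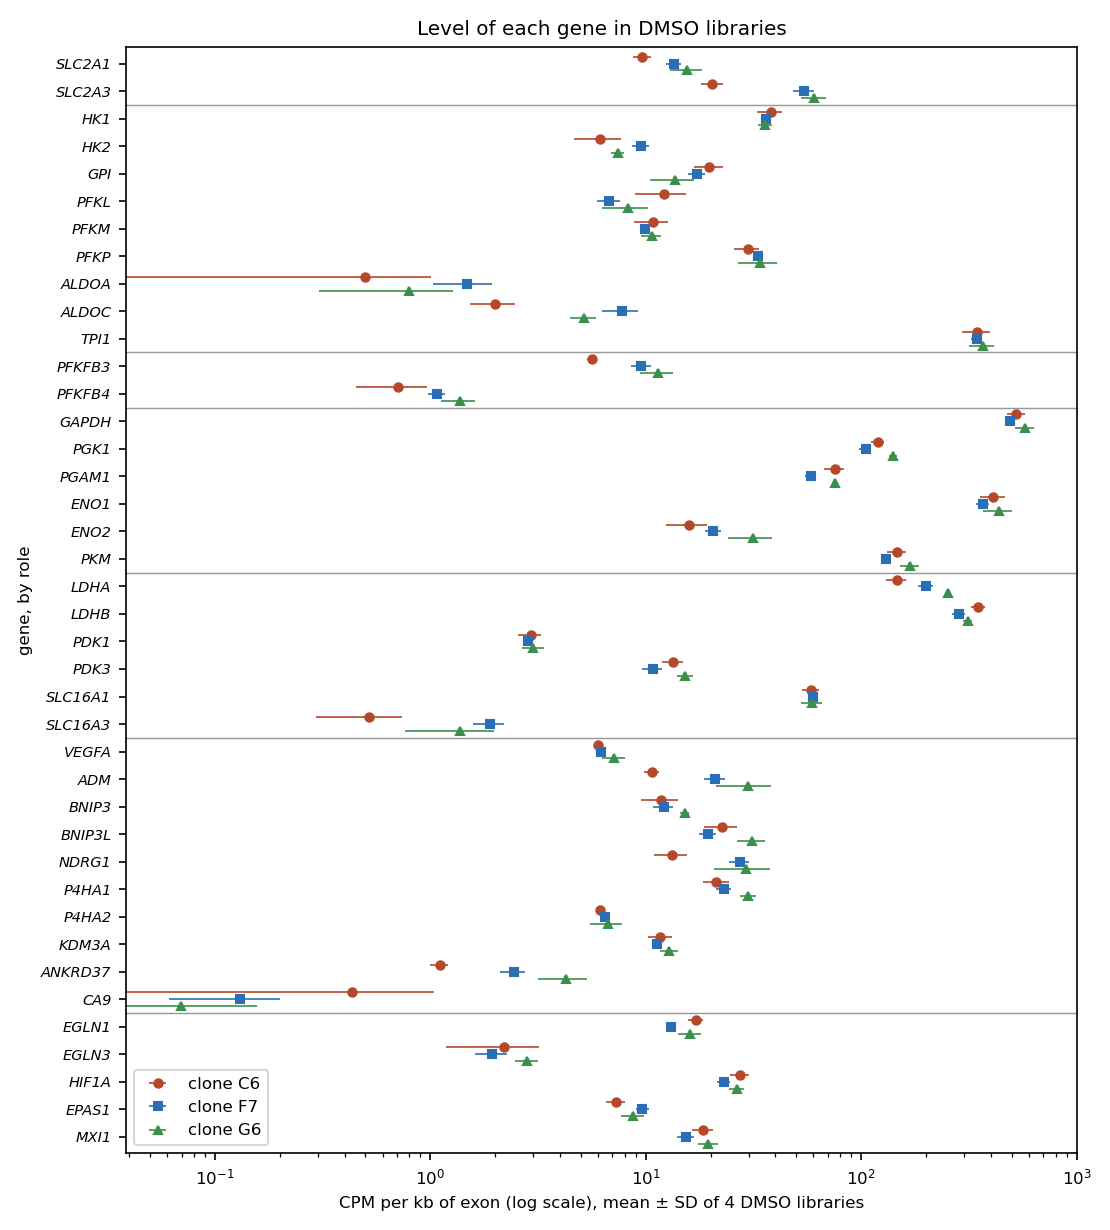
Level of each of the 40 members in the DMSO libraries of clones C6, F7 and G6, in CPM per kb of exon on a log axis (mean ± SD, n = 4 per clone), ordered by role with lines between roles. GAPDH is highest, at 526, 489 and 576 CPM per kb in C6, F7 and G6, and CA9 lowest, at 0.433, 0.130 and 0.0697 CPM per kb; SD bars that reach below the axis are cut off at its left edge.

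Where a step has several isoenzymes, 1 of them held most of the transcripts per kb of exon in all 3 clones. HK1 made up 85.8% ± 4.37 of hexokinase transcripts in C6, 79.3% ± 1.35 in F7 and 82.8% ± 0.603 in G6 (share per kb in DMSO, SD, n = 4 each), with HK2 the rest. PFKP, the platelet phosphofructokinase, made up 56.7% ± 2.52 in C6, 66.6% ± 0.724 in F7 and 64.0% ± 2.25 in G6. The same order held for ENO1 over ENO2, SLC16A1 over SLC16A3, PDK3 over PDK1 and PFKFB3 over PFKFB4. SLC2A3, a high-affinity glucose transporter best known from neurons, stood at 67.8% ± 3.60 in C6, 80.1% ± 0.934 in F7 and 79.5% ± 1.62 in G6, with SLC2A1 the rest. The LDHA share was lowest in C6, at 29.4% ± 2.84, against 41.3% ± 2.36 in F7 and 44.9% ± 1.64 in G6. These shares depend on exon length, 6.21 kb for LDHA and 2.983 kb for LDHB. Without that division LDHA averaged 1206 CPM over all libraries and LDHB 897 CPM, and their order turned in F7 and G6. PFKP averaged 157 CPM, PFKL 88.1 CPM and PFKM 78.6 CPM. SLC2A14, a near-identical copy of SLC2A3, was counted at a mean of 5.17 CPM.

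With OL9-119, VEGFA, the main angiogenic growth factor, rose, and 9 members fell. Of these 9, 7 were genes of glycolysis or lactate handling, roles that also make up most of the list. Against DMSO, OL9-119 changed 10 of the 40 members, 1 higher and 9 lower (edgeR quasi-likelihood test, Benjamini-Hochberg adjusted p under 0.05 over all 18985 genes). Of all genes, 9.47% were called in this comparison, 4.47% higher and 5% lower. The median member changed by -0.09 on the log2 scale, against 0.01 for all genes. Values after ± are SEs of log2 changes, which are averaged over the 3 clones (12 libraries a treatment).

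VEGFA (ENSG00000112715, chr6:43770184-43786487, hg38) stood at 135, 164, 165 and 127.7 CPM in OL9-119 libraries of C6, against 89.6, 87.9, 81.6 and 86.4 CPM in DMSO. In F7 it stood at 116, 126.2, 132 and 127.7 CPM with OL9-119, against 87.3, 89.7, 92.6 and 88.5 CPM with DMSO. In G6 it stood at 169, 184, 159.6 and 198 CPM with OL9-119, against 94.8, 96.6, 98.1 and 121.1 CPM with DMSO. Every OL9-119 library lay above every DMSO library of its clone, also in G6, where DMSO replicate 4 stood above the other 3. VEGFA rose 1.61-fold (log2 change 0.68 ± 0.07, adjusted p = 9.62e-12, edgeR), by 0.78 in C6, 0.49 in F7 and 0.79 in G6.

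PGAM1, phosphoglycerate mutase (ENSG00000171314, chr10:97426160-97433441), went the other way. It stood at 147, 134, 138 and 146 CPM in OL9-119 libraries of C6, against 220.5, 173, 181 and 199.8 CPM in DMSO. In F7 the values were 116, 106, 109 and 135 CPM with OL9-119 and 143, 143, 160.3 and 155 CPM with DMSO. Clone G6 gave 122.99, 162, 155 and 142 CPM with OL9-119 and 197, 194, 185 and 198 CPM with DMSO. OL9-119 and DMSO libraries did not overlap in any clone, and PGAM1 fell by 0.41 ± 0.05 on the log2 scale (fold 0.752, adjusted p = 6.6e-09, edgeR).

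The other called members changed by less than PGAM1. LDHA fell by 0.27 ± 0.06 (adjusted p = 0.000687, edgeR). Its OL9-119 and DMSO libraries overlapped in C6 and G6 but not in F7, where they stood at 984, 964, 1033 and 1013 CPM with OL9-119 and 1195, 1150.0, 1377 and 1230.2 CPM with DMSO. LDHB (-0.16), PGK1 (-0.18), TPI1 (-0.18) and SLC16A1 (-0.17), the main lactate carrier of these cells, fell too, as did PFKFB3 (-0.29), which makes the activator of phosphofructokinase. The last 2 were EGLN3 (-0.37) and KDM3A (-0.20), a histone demethylase induced by hypoxia. TPI1 was the least firm of the 9, with an adjusted p of 0.0441 (edgeR), and its call was lost under 32 of 72 alternative analyses (adjusted p up to 0.443). The EGLN3 call was lost under 9 of 72. By role, 2 of 6 lower glycolytic enzymes and 3 of 6 genes of pyruvate and lactate handling fell, while neither glucose transporter was called. Of the 10 hypoxia targets, 1 rose and 1 fell. The count of 10 was 3 without clone F7 and 5 without G6.

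Other genes of the pathway were mixed, beside 9.47% of all genes called with OL9-119 (4.47% higher, 5% lower). Of 24 further hypoxia targets, 4 rose and 5 fell. DDIT4, an inhibitor of mTORC1, rose by 1.67, BHLHE40 by 0.36 and PPP1R3C by 0.32, while STC1 (-0.58), AK4 (-0.34) and the lncRNA MIR210HG (-0.70) fell. Of 27 further genes of glycolysis, pyruvate transport and the pentose phosphate pathway, 3 were called and fell, namely TXNIP (-0.36), RPIA (-0.26) and TIGAR (-0.25). Of 12 further genes of the HIF machinery, CREBBP (0.19) rose and RBX1 (-0.31) and ELOC (-0.22) fell.

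With topotecan, 1 glucose transporter, 1 hypoxia target and 1 hexokinase fell. Against DMSO, 3 of the 40 members were called, 0 higher and 3 lower, while 15.3% of all genes were called (5.99% higher, 9.35% lower). Without adjustment, edgeR gave 10 members with p under 0.05, 3 higher and 7 lower, against 25.6% of all genes in either direction. DESeq2 called 4, 1 higher and 3 lower. The count of 3 was 7 without G6 DMSO replicate 4, 5 without C6 topotecan replicate 1 or C6 DMSO replicate 3, 7 without the libraries with few detected genes and 6 with no filter on low counts. The members' median log2 change was -0.0026, against 0.02 for all genes. Topotecan, OL9-119 and the combination were each set against the same DMSO libraries.

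SLC2A3 (ENSG00000059804, chr12:7919230-7936275) stood at 98.8, 81.6, 91.6 and 93.7 CPM in topotecan libraries of C6, against 120.7, 133, 108 and 141 CPM in DMSO. In F7 it stood at 298, 289, 283 and 262 CPM with topotecan, against 310.3, 318, 392 and 322 CPM with DMSO. In G6 it stood at 218, 246, 288 and 266 CPM with topotecan, against 311, 366, 381 and 430.0 CPM with DMSO. No topotecan library reached any DMSO library of its clone, and SLC2A3 fell by 0.42 ± 0.06 (fold 0.748, adjusted p = 1.05e-06, edgeR).

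NDRG1, a stress-responsive gene on chromosome 8 that rises in hypoxia, fell by 0.42 ± 0.09 (fold 0.748, adjusted p = 0.000377, edgeR). In F7 it stood at 192, 189.9, 188 and 185 CPM with topotecan and 244, 277, 306 and 247 CPM with DMSO. Libraries of the treatments overlapped in C6 and G6. HK1 (ENSG00000156515, chr10:69269984-69401884) fell by 0.23 ± 0.05 (fold 0.851, adjusted p = 8.36e-05, edgeR). It stood at 161, 175, 184 and 182 CPM with topotecan and 205, 221, 242 and 237 CPM with DMSO in G6, and its libraries did not overlap in F7 either, but did in C6.

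Among the other pathway genes, 4 of 27 further glycolytic and pentose phosphate genes were called with topotecan, and all 4 rose. Of all genes, 15.3% were called in this comparison (5.99% higher, 9.35% lower), so the count is near the share over all genes. These were PFKFB2 (0.26), TIGAR (0.26), a p53 target that lowers fructose-2,6-bisphosphate, PGD (0.21) and TXNIP (0.27). Of 24 further hypoxia targets, 2 were called and fell, namely GBE1 (-0.42) and ZNF395 (-0.16). Of 12 genes of the HIF machinery, CITED2 (0.23) rose and CREBBP (-0.28), CUL2 (-0.26), ARNT2 (-0.22) and EP300 (-0.15) fell. On the genome CITED2 spans 2.81 kb, CREBBP 156 kb, CUL2 82.1 kb, ARNT2 194 kb and EP300 88.3 kb. The part of gene span in the changes with topotecan was not tested.

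**Figure D2:**
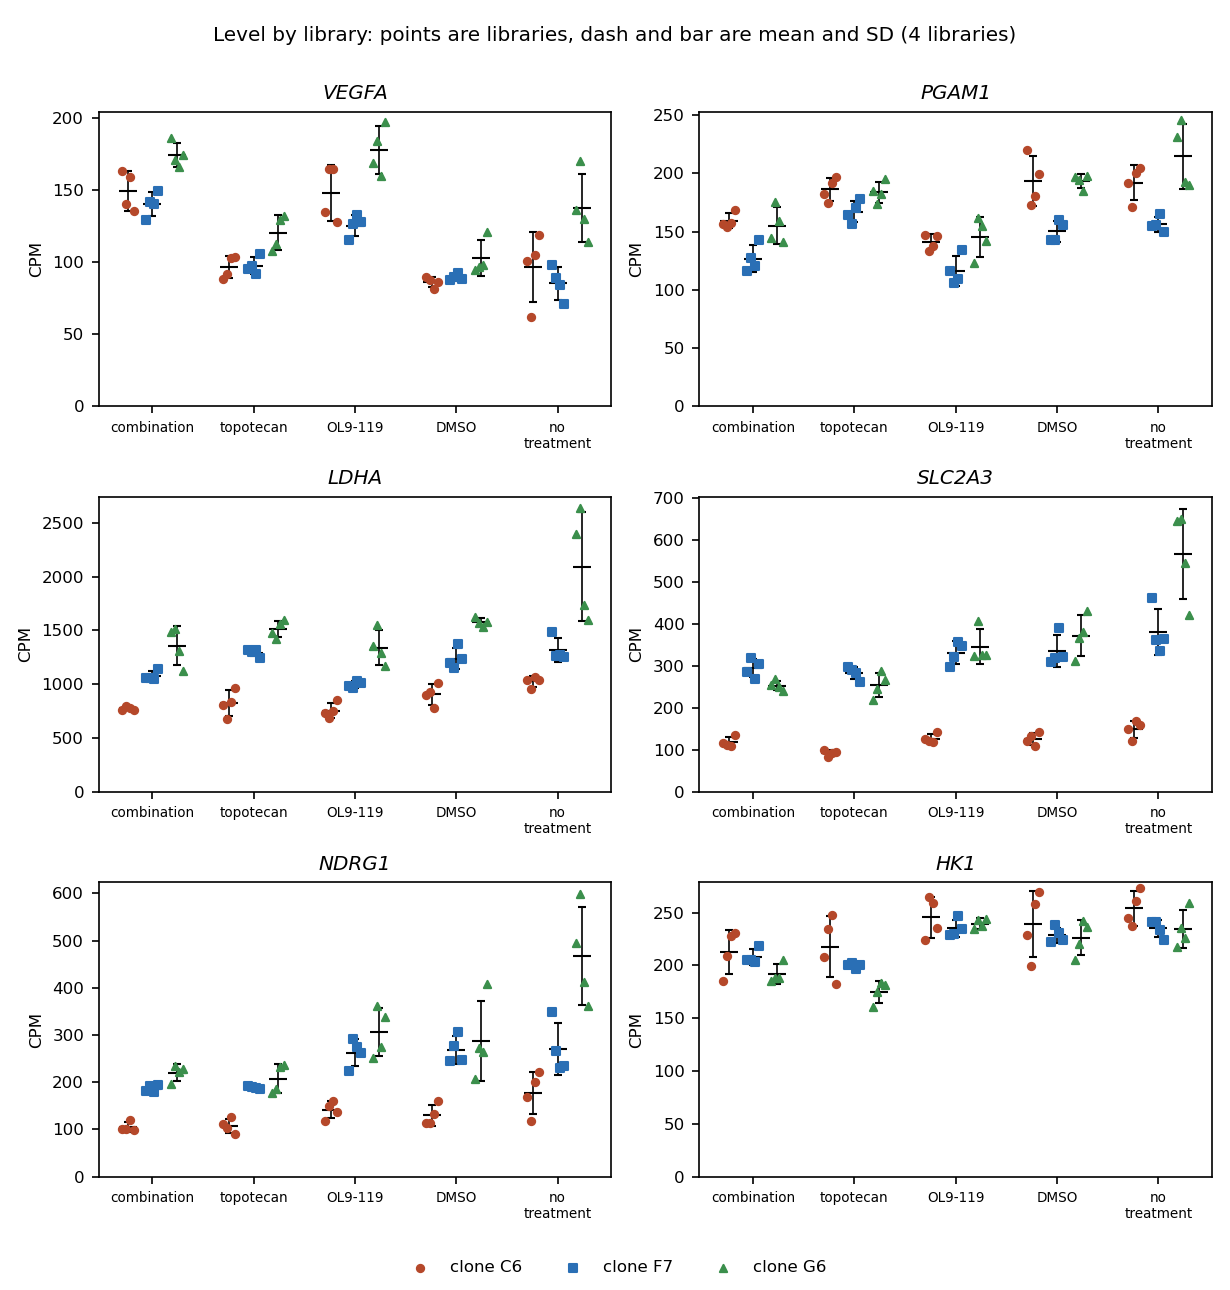
Levels in CPM of 6 members in every library, by treatment, with clone C6 as circles, F7 as squares and G6 as triangles; dash and bar are mean and SD (n = 4). VEGFA is high with OL9-119 and the combination in every clone, PGAM1 is low with both, and SLC2A3, NDRG1 and HK1 are lower with topotecan than with DMSO.

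With the combination, VEGFA rose and 12 other members fell. Against DMSO, 13 of 40 members were called, 1 higher and 12 lower, against 21.2% of all genes (9.52% higher, 11.7% lower). The members' median was -0.12 on the log2 scale, against -0.01 for all genes. VEGFA rose 1.66-fold (0.73 ± 0.07, adjusted p = 2.92e-13, edgeR). It stood at 163, 141, 159 and 135 CPM with the combination in C6, at 129.6, 141, 140.3 and 149 CPM in F7, and at 186, 171, 166 and 174 CPM in G6, above every DMSO library of the same clone. PGAM1 fell by 0.28 ± 0.05 (adjusted p = 1.16e-05, edgeR), and its combination and DMSO libraries overlapped in F7 only.

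SLC2A3 fell by 0.28 ± 0.06 (adjusted p = 0.000731, edgeR), by 0.09 in C6, 0.19 in F7 and 0.55 in G6. Libraries overlapped in C6 and F7, whereas in G6 they stood at 255, 269, 249 and 240.4 CPM with the combination and 311, 366, 381 and 430.0 CPM with DMSO. NDRG1 (-0.40), HK1 (-0.18), LDHA (-0.22) and LDHB (-0.20) fell as well. TPI1 (-0.18), EGLN1 (-0.18), ENO1 (-0.17), PKM (-0.15), PGK1 (-0.13) and SLC16A1 (-0.12) fell less firmly, with adjusted p between 0.0267 and 0.0480 (edgeR). In each of these 6, the call was lost under at least 29 of the alternative analyses, and the count of 13 was 4 without clone F7, 6 without G6 and 7 or 8 without any 1 of 18 libraries. Of 24 further hypoxia targets, 3 rose and 6 fell, DDIT4 rising by 1.34, against 21.2% of all genes called with the combination. Of 12 HIF machinery genes, 2 rose and 5 fell, including the ubiquitin ligase parts RBX1 (-0.47) and ELOC (-0.31), while VHL, the substrate receptor of that ligase, rose by 0.28. Of 27 further glycolytic and pentose phosphate genes, 3 were called, and SLC16A7 (-0.43), TXNIP (-0.36) and RPIA (-0.32) fell.

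Adding OL9-119 to topotecan changed 7 of 40 members, 1 higher and 6 lower, against 6.78% of all genes (3.33% higher, 3.45% lower). VEGFA rose by 0.56 ± 0.07 (fold 1.47, adjusted p = 7.08e-09, edgeR). PGAM1 (-0.29), TPI1 (-0.27), LDHB (-0.21), PKM (-0.21), PGK1 (-0.14) and EGLN3 (-0.37) fell. The call was lost under 31 of 69 alternative analyses for PGK1 and 13 of 69 for EGLN3. The count of 7 was 12 without C6 combination replicate 3 and 4 without the libraries with few detected genes. Adding topotecan to OL9-119 changed 3 members, 0 higher and 3 lower, against 12.7% of all genes (5% higher, 7.72% lower). These were NDRG1 (-0.46), SLC2A3 (-0.24) and HK1 (-0.23). The count of 3 was 5 without C6 combination replicate 3, without G6 OL9-119 replicate 4 or without the libraries with few detected genes. In F7 and G6 no combination library reached any OL9-119 library for NDRG1, with 182, 192, 179 and 194 CPM in the combination and 224, 291, 274 and 262 CPM with OL9-119 in F7. For the 0 higher, edgeR gave 3 members at an unadjusted p under 0.05, and DESeq2 called 1. In either direction 7 members met that unadjusted level, against 23.7% of all genes.

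No member was called as departing from additivity of the compounds on the log2 scale. By edgeR 0 of 40 were called, against 0.0316% of all genes, and by DESeq2 0. An unadjusted p under 0.05 (edgeR) was met by 2 members, against 6.31% of all genes. For none of the treatments was the effect on a member called as different between clones. Of all genes, clone dependence was called for 0.137% with topotecan, 0.0263% with OL9-119, 0.169% with the combination and 0.00527% with DMSO. All 4 edgeR counts of members were 0, and DESeq2 called 0 in each. An unadjusted p under 0.05 (edgeR) was met by 3 members for the combination (5.11% of all genes) and 9 for DMSO (3.24%). It was met by 0 members for topotecan (3.76%) and 0 for OL9-119 (3.41%).

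**Figure D3:**
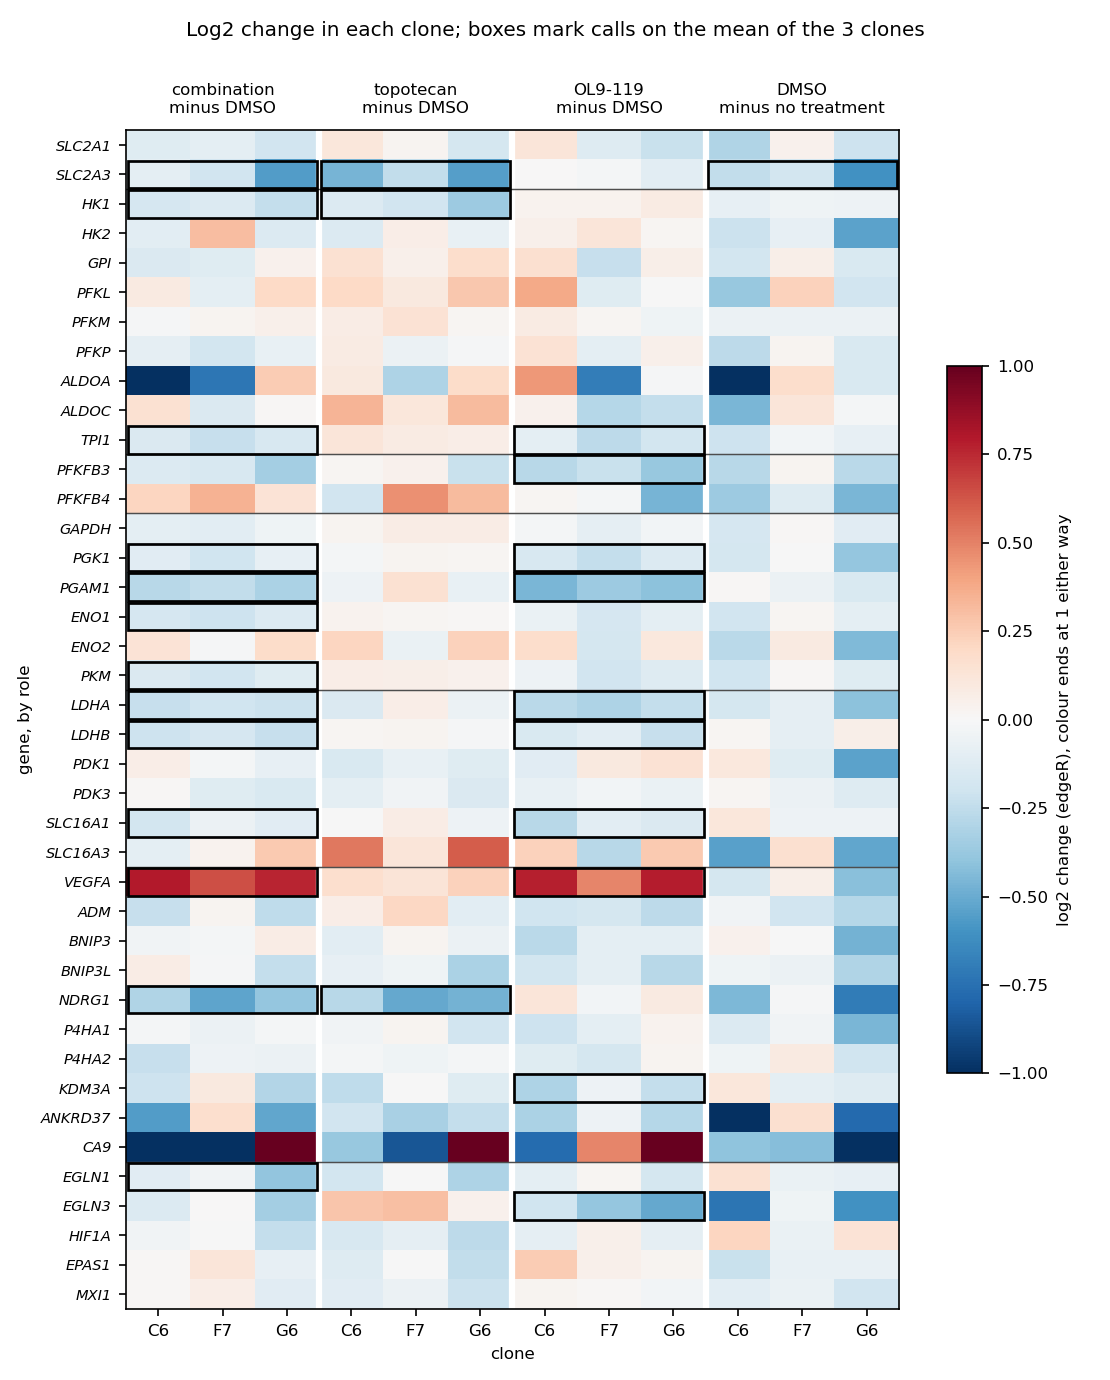
Log2 change of each of the 40 members (rows, by role) in clones C6, F7 and G6 for the combination, topotecan and OL9-119, each minus DMSO, and for DMSO minus no treatment; colour is the log2 change and ends at 1 either way. Boxes mark calls on the mean of the 3 clones (edgeR, adjusted p under 0.05): VEGFA is the boxed member above 0, with the combination (0.73) and OL9-119 (0.68).

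DMSO against no treatment was known from the whole series to lower SLC2A3, so that value is a description. In this comparison 1 of 40 members was called, 0 higher and 1 lower, against 0.0158% of all genes (3 genes, all lower). That 1 member was SLC2A3, so the count was known beforehand and is no test of the list. The p-value and stability of its call describe the same known change. For the 0 higher, edgeR gave 0 members at an unadjusted p under 0.05, and DESeq2 called 0. SLC2A3 had a log2 change of -0.35 ± 0.06 (fold 0.786, adjusted p = 0.0145, edgeR), of -0.25 in C6, -0.18 in F7 and -0.61 in G6. It stood at 311, 366, 381 and 430.0 CPM with DMSO and 647, 650.0, 547 and 423 CPM untreated in G6, where only untreated replicate 4 fell within the range of the DMSO libraries. In C6 and F7 the groups overlapped. The call was lost without the libraries with few detected genes, without any 1 clone, and without any 1 of G6 untreated replicate 2, F7 untreated replicate 1, F7 DMSO replicate 1 and C6 untreated replicate 3. The count of 1 was 3 without C6 untreated replicate 2 or G6 untreated replicate 4, and 2 without C6 DMSO replicate 4 or G6 DMSO replicate 4.

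Most of the other members had values below 0 too, though none passed the test. The log2 change was negative in 37 of the 40, SLC2A3 included, with a median of -0.13 against -0.01 for all genes. An unadjusted p under 0.05 (edgeR) was met by 16 members, all lower and SLC2A3 among them, against 5.02% of all genes. The fall of SLC2A3 was known, and some members move together within groups, so these counts are no test of the list. By clone, 31 of 40 were below 0 with a median of -0.18 in C6, 25 and -0.04 in F7, and 38 and -0.20 in G6. Without G6 untreated replicates 1 and 2 the median in G6 was -0.16. DESeq2 called 4, all lower. Next after SLC2A3 came NDRG1 (-0.39, adjusted p = 0.117, edgeR), EGLN3 (-0.46, adjusted p = 0.176) and PGK1 (-0.19, adjusted p = 0.176).

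In clone G6, 2 untreated libraries stood apart for several hypoxia-responsive members. LDHA stood at 1629.5, 1569.9, 1535 and 1576 CPM with DMSO in G6, and at 2399.7, 2644, 1740.2 and 1595 CPM untreated. BNIP3 stood at 85.1, 77.3, 83.6 and 76.9 CPM with DMSO in G6, against 147, 133, 88.2 and 79.2 CPM untreated. ANKRD37 stood at 8.25, 9.18, 11.9 and 14.6 CPM with DMSO in G6, against 25.5, 23.7, 15.3 and 11.1 CPM untreated. In all 3 genes, untreated replicates 1 and 2 were high and replicate 4 lay within the DMSO range. The median log2 level of the 10 hypoxia targets, relative to the DMSO mean of the clone, was 0.77, 0.73, 0.29 and 0.11 in the untreated G6 replicates 1 to 4, with 10, 10, 10 and 6 of the 10 above that mean. It was -0.07 to 0.24 in untreated C6 libraries and -0.02 to 0.11 in untreated F7 libraries. Of the high pair, replicate 1 was among the 14 libraries with few detected genes (19235 genes) and replicate 2 was not (21876 genes). Without replicate 1 alone, the SLC2A3 call over the 3 clones remained (edgeR, adjusted p under 0.05). It was lost without replicate 2 alone and without all 14 libraries with few detected genes. As the fall of SLC2A3 was known, this describes the call and is no test. Replicates 1 and 2 of every G6 treatment carry the library prefix L01, whose meaning the labels do not give, and in the other 4 treatments of G6 their median for the hypoxia targets was -0.22 to 0.12.

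Within G6, edgeR called 2 members lower with DMSO, SLC2A3 (-0.61, adjusted p = 0.0213) and PGK1 (-0.39, adjusted p = 0.0374), against 0.0316% of all genes. The fall of SLC2A3 was known from these libraries, so its call here is a description as well. PGK1 stood at 752, 767, 760.1 and 825 CPM with DMSO and 1071, 1219.9, 872 and 899 CPM untreated, with no overlap. Without untreated replicates 1 and 2, edgeR called 0 members in G6 (4 at an unadjusted p under 0.05, against 15 with them), and 0 over the 3 clones. These 2 were picked for standing high, and fewer untreated libraries remained. The drop therefore cannot show how far the change rests on them. In C6 and F7, 0 members were called by edgeR, against 0% of all genes in each clone, with 9 members in C6 and 0 in F7 at an unadjusted p under 0.05. DESeq2 was not run within clones. In C6, ANKRD37 was not called (log2 change -1.03, adjusted p = 0.487, edgeR). Its libraries did not overlap, at 2.55, 2.87, 2.77 and 3.22 CPM with DMSO and 4.94, 6.62, 5.81 and 6.29 CPM untreated. The gene was picked after the values were seen, is low in C6, and shares 35.2% of its exon bases with UFSP2. The share of all genes without overlap was not taken. These tests within a clone were added after the values were seen. For them, the share of all genes at an unadjusted p under 0.05 was not taken, so the unadjusted counts have no background. The DMSO change in G6 minus that in F7 called 0 members (10 at an unadjusted p under 0.05, edgeR, and 1 without those 2 libraries), against 0.00527% of all genes, and G6 minus C6 called 0 (3 unadjusted), against 0% of all genes.

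**Figure D4:**
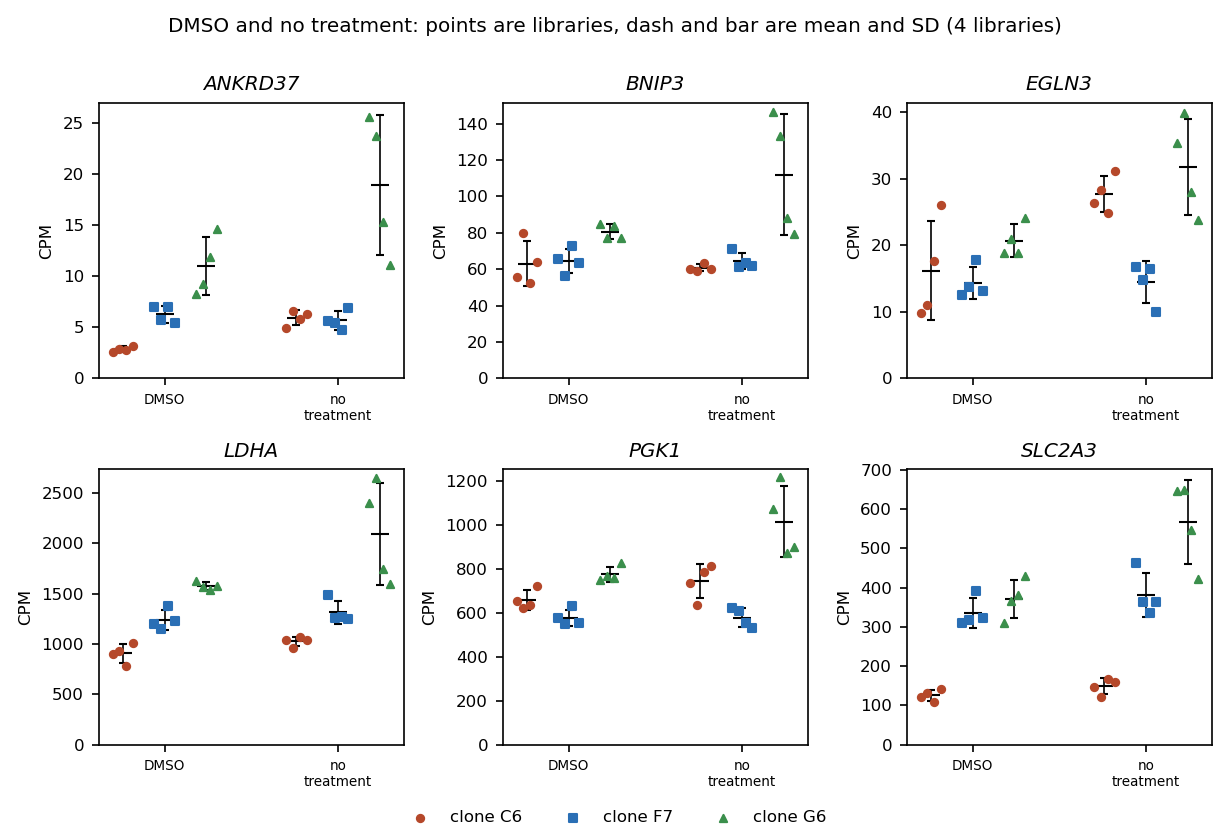
Levels in CPM of 6 members in every DMSO and untreated library, with clone C6 as circles, F7 as squares and G6 as triangles; dash and bar are mean and SD (n = 4). In untreated G6, replicates 1 and 2 are the highest libraries for all 6 members, as for LDHA at 2399.7 and 2644 CPM.

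More members were called between clones than in any treatment comparison. Averaged over the 5 treatments (20 libraries a clone), C6 minus F7 called 32 members, 16 higher and 16 lower, against 66.8% of all genes (31.7% higher, 35.1% lower). C6 minus G6 called 31, 5 higher and 26 lower, against 56.8% of all genes (27.4% higher, 29.3% lower). F7 minus G6 called 28, 4 higher and 24 lower, against 48% of all genes (23.1% higher, 24.9% lower). The members' median was -0.03, -0.21 and -0.23 in these comparisons, against -0.04, -0.02 and 0.01 for all genes.

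Most hypoxia targets were highest in G6. Of the 10 hypoxia targets, 9 were lower in C6 than in G6 and 8 lower in F7 than in G6, while between C6 and F7, 2 were higher and 4 lower in C6. ANKRD37 averaged 3.13 ± 1.68 CPM in clone C6, 6.04 ± 1.12 CPM in clone F7 and 11.2 ± 5.31 CPM in clone G6 (SD, n = 20 each). ADM, the vasodilator peptide adrenomedullin, averaged 27.6 ± 4.31 CPM in clone C6, 59.5 ± 7.25 CPM in clone F7 and 78.2 ± 15.4 CPM in clone G6. NDRG1 averaged 132 ± 35.1 CPM in clone C6, 235 ± 48.4 CPM in clone F7 and 298 ± 112 CPM in clone G6. In ADM, ANKRD37 and NDRG1 all 3 pairs of clones were called, with C6 lowest and G6 highest. CA9 was higher in C6 than in F7, but at means of 0.545 and 0.216 CPM both lay near 0. Of 24 further hypoxia targets, 4 were higher and 13 lower in C6 than in G6. In F7, 3 were higher and 17 lower than in G6, and C6 had 10 higher and 7 lower than F7. Of all genes, 56.8%, 48% and 66.8% were called in these pairs.

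SLC2A3, SLC16A3 and LDHA were lowest in C6, and LDHB was highest there. SLC2A3 averaged 121.998 ± 22.5 CPM in clone C6, 325 ± 46.9 CPM in clone F7 and 358 ± 128.2 CPM in clone G6 (C6 minus F7 -1.42 ± 0.05, C6 minus G6 -1.51 ± 0.05), and F7 and G6 were not called apart (F7 minus G6 -0.08, adjusted p = 0.174, edgeR). The lactate carrier SLC16A3 averaged 5.61 ± 2.42 CPM in clone C6, 16.5 ± 3.08 CPM in clone F7 and 15.9 ± 5.19 CPM in clone G6, again with no call between F7 and G6 (0.05). LDHA averaged 856 ± 124.4 CPM in clone C6, 1184 ± 144 CPM in clone F7 and 1577 ± 361 CPM in clone G6. LDHB stood at 998 ± 95.2 CPM in clone C6, 829 ± 70.7 CPM in clone F7 and 866 ± 82.1 CPM in clone G6.

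Enzymes of the pathway did not share 1 order. ALDOC, an aldolase, was lower in C6 than in F7 (-1.62) and in G6 (-1.15), and PFKFB3 and PFKFB4 were lower in C6 than in both as well. PFKL, the liver phosphofructokinase, went the other way, at 125.9 ± 31.5 CPM in clone C6, 57.5 ± 7.80 CPM in clone F7 and 80.9 ± 17.2 CPM in clone G6. GPI (glucose-6-phosphate isomerase) averaged 222 ± 35.9 CPM in clone C6, 176 ± 17.1 CPM in clone F7 and 155 ± 22.5 CPM in clone G6. Of the 6 lower glycolytic enzymes, all were lower in F7 than in G6, from -0.28 for GAPDH to -0.87 for ENO2. HIF1A stood at 131 ± 16.4 CPM in clone C6, 119 ± 8.86 CPM in clone F7 and 123.4 ± 15.8 CPM in clone G6. HIF1A was called in C6 minus F7 alone (0.14), a difference whose sign turned without the libraries with few detected genes (-0.011). EPAS1 was lowest in C6 (C6 minus F7 -0.39, C6 minus G6 -0.16) and highest in F7. Of the 14 libraries with few detected genes, 10 were C6 libraries. Without these 14, the pairs called 34, 30 and 32 members. With the DMSO libraries alone (4 a clone) they called 18, 19 and 12, and with the library prefix (L01, L02 or L03) as a covariate 33, 32 and 27. The shares of all genes in these refits are not given here, so these counts have no background. Without the untreated libraries, G6 minus F7 called 22 members, 18 higher and 4 lower in G6, against 42.7% of all genes.

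**Figure D5:**
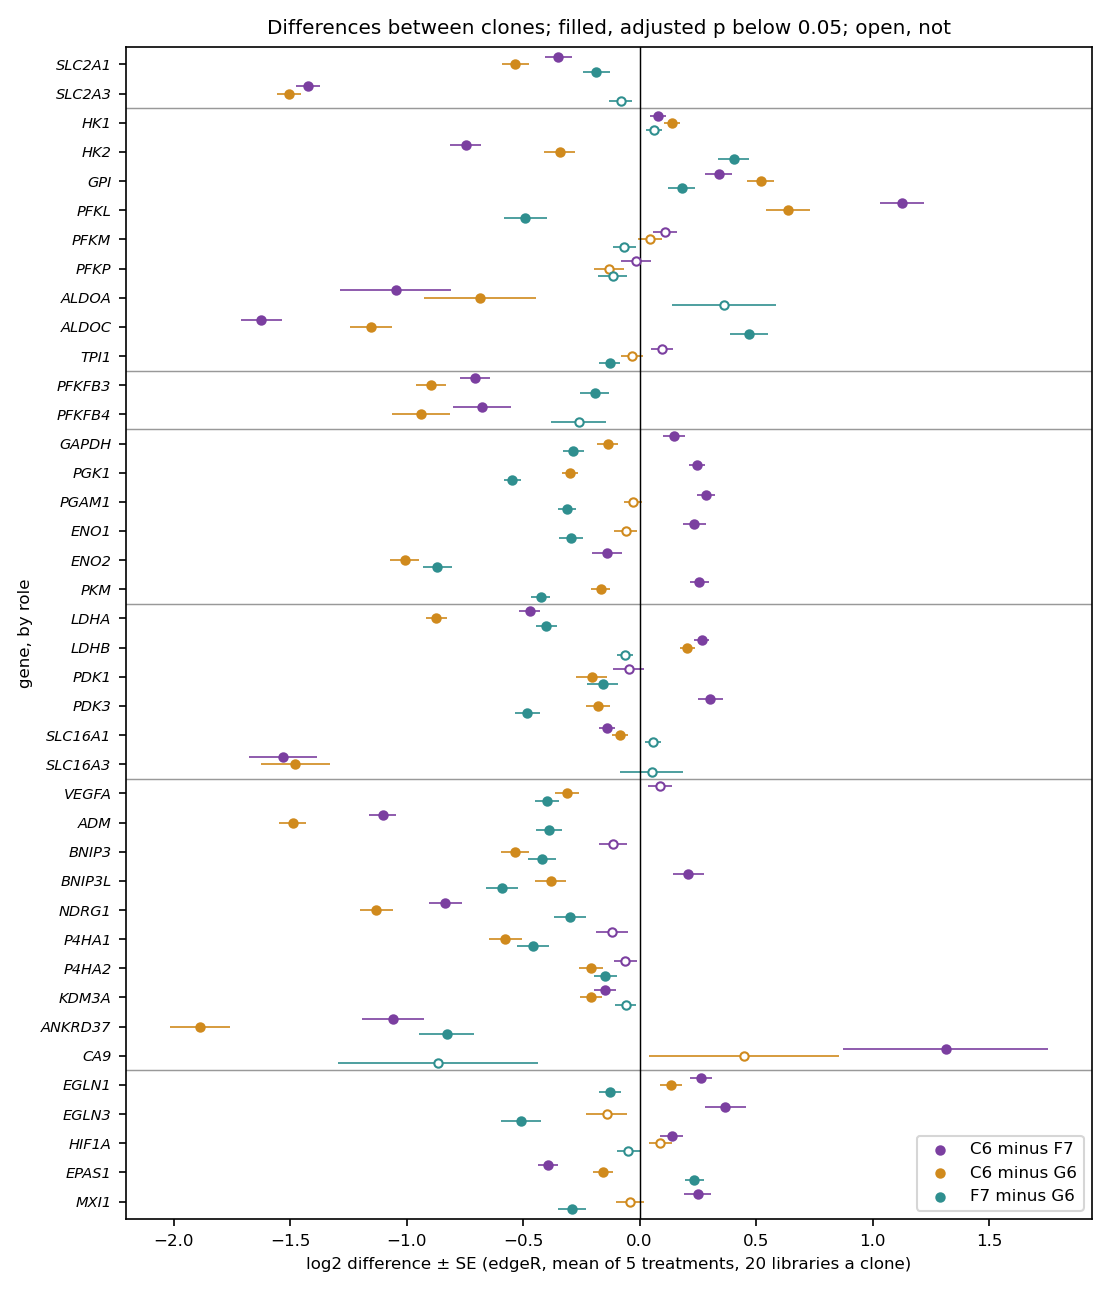
Log2 difference ± SE of each of the 40 members (rows, by role) for C6 minus F7, C6 minus G6 and F7 minus G6, averaged over the 5 treatments (20 libraries a clone); filled points have an adjusted p under 0.05 (edgeR) and open ones do not. Most hypoxia targets lie left of 0 for C6 minus G6, to -1.89 for ANKRD37, and PFKL lies right of 0 for C6 minus F7 (1.13).

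Within groups, some pairs of members moved together, while the median pair did so weakly. Deviations of each library from its group mean (n = 60 libraries, which share depth and scaling) gave a Pearson r of 0.943 between GPI and PFKP (Spearman rho 0.939, r 0.933 without the 2 farthest libraries). TPI1 and PKM gave 0.932 (rho 0.932, 0.919) and ENO1 and PKM 0.895 (rho 0.909, 0.884). LDHA and P4HA1, a collagen prolyl hydroxylase, gave 0.814 (rho 0.719, 0.769), and BNIP3L and EGLN1 gave 0.846 (rho 0.814, 0.811). In the 46 libraries with many detected genes these were 0.928, 0.898, 0.865, 0.860 and 0.782. A set of 7 enzymes held GPI, PFKL, PFKP, TPI1, GAPDH, ENO1 and PKM. A set of 10 further members held BNIP3, BNIP3L, P4HA1, LDHA, PGK1, KDM3A, EGLN1, MXI1, HIF1A and PDK1. The second set leaves out VEGFA, ADM, NDRG1, ANKRD37 and EGLN3. Both sets were chosen after the values were seen. The median r was 0.873 among the 7, 0.663 among the 10 (lowest -0.192) and -0.562 between the sets. That choice fixes the direction of these medians. Over all 780 pairs of members the median was 0.176, and by role it was 0.598 for lower glycolysis, 0.514 for upper glycolysis, 0.0620 for the 10 hypoxia targets and -0.147 for pyruvate and lactate handling. The enzymes also moved with the number of detected genes, with r of 0.900 for ENO1, 0.834 for PFKP and 0.828 for GPI, against a median of 0.173 over all genes. HIF1A (-0.793), MXI1 (-0.772) and EGLN1 (-0.758) moved against it. SLC2A3 gave 0.0203, PGAM1 0.0326 and VEGFA 0.406. Mean detected genes were 21138 with the combination, 21529 with OL9-119, 21575 with topotecan, 21156 with DMSO and 21539 untreated. The part of the number of detected genes in the smaller changes of ENO1, TPI1 and PKM was not tested.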

How the data were processed

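RNA was extracted by Trizol, selected for poly(A) and made into 60 directional libraries, per the labels' protocols. The deposited table holds the authors' raw counts per Ensembl identifier, as integers without normalisation. FastQC 0.11.9, STAR 2.7.8, Picard 2.26.6 and hg38 are named, per the submitters' processing notes. Not given in the sources used here: counting tool, annotation, strandedness of the counting. After filterByExpr on the 15 groups, edgeR 4.0.16 was run in R 4.3.3 (quasi-likelihood F test, 2-sided, TMM scaling with factors of 0.925 to 1.08), with 1 mean per group and all 60 libraries. P-values of the 18985 genes were adjusted by Benjamini-Hochberg, and calls made at 0.05. CPM use TMM library sizes, log2 values for display a prior count of 2, and exon lengths GENCODE 29. Figures were drawn with matplotlib 3.10.9. Between replicates, the variance of counts was 2.31 to 59.8 times counting error over 90 pairs. The fit was tested on simulated data. Any of the 40 members could be named, other pathway genes only where called, and TDP1 as the target. The members and gene lists were chosen with earlier results of these data known. Alternatives were DESeq2 1.42.0, its size factors in edgeR, no filter, a replicate block, DMSO libraries alone or the prefix of the library name (L01 to L03, balanced over treatments within each clone) as a covariate for clones, and leaving out libraries, replicate numbers, clones or the 14 libraries with few detected genes. Leaving out the untreated libraries or G6 untreated replicates 1 and 2, and tests within a clone, were added after seeing the data.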

Additional observations from a re-analysis of the deposited data

Results flagged for a closer look

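In 11 of 180 groups of 4 libraries examined (12 members in 15 groups), 1 library lay far from the other 3, by Dixon's 95% critical value for the gap as a share of the range. Chance alone flags about 1 group in 20. SLC2A3 was at 391.6 CPM in F7 DMSO replicate 3 (others 310.3 to 321.8 CPM) and at 407.9 CPM in G6 OL9-119 replicate 2 (323.3 to 325.6 CPM). VEGFA was at 121.1 CPM in G6 DMSO replicate 4 (94.8 to 98.1 CPM). NDRG1 was at 121.1 CPM in C6 combination replicate 3, above the other 3. HK1 was at 218.9 CPM in F7 combination replicate 4 (203.1 to 205 CPM) and at 205.4 CPM in G6 combination replicate 4 (185.5 to 188.4 CPM). ANKRD37 was at 4.775 CPM in F7 OL9-119 replicate 4 (6.455 to 6.597 CPM), and EGLN3 at 17.64 CPM in F7 combination replicate 4 (12.91 to 13.43 CPM). LDHA was at 1484 CPM in F7 untreated replicate 1 (1251 to 1268 CPM) and at 1142 CPM in F7 combination replicate 4 (1047 to 1058 CPM). PGK1 was at 804.8 CPM in G6 combination replicate 2 (700.9 to 716.4 CPM).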

How the results depend on the processing

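Among treatment comparisons, these calls held under every alternative run. They were SLC2A3 with topotecan, and VEGFA and PGAM1 with OL9-119, the combination and the combination minus topotecan. LDHB with the combination, TPI1 and LDHB in the combination minus topotecan, and NDRG1 and HK1 in the combination minus OL9-119 held as well. Counts of called members moved as follows, given here and below without the share of all genes in each refit. With topotecan (3), no filter gave 6, the replicate block 7 and leaving out the libraries with few detected genes 7, and DESeq2 called 1 higher and 3 lower. With OL9-119 (10), leaving out F7 gave 3 and G6 5. With the combination (13), leaving out F7 gave 4 and G6 6. In the combination minus topotecan (7), the block gave 13 and leaving out low-detection libraries 4. In the combination minus OL9-119 (3), each gave 5, and DESeq2 size factors gave 1 higher and 3 lower. For DMSO minus no treatment (1), DESeq2 and no filter gave 4 each, the block 3, and leaving out low-detection libraries, any 1 clone, or G6 untreated replicates 1 and 2 gave 0. Clone dependence of DMSO gave 1 with no filter. With DMSO libraries alone, C6 minus F7 gave 18, C6 minus G6 19 and F7 minus G6 12. With the library prefix as a covariate, 88 clone calls held and 3 were lost (SLC16A1 in C6 minus G6, and EGLN1 and PDK1 in F7 minus G6). Other causes were not tested, beyond the fewer samples of these fits.

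Leaving out 1 replicate number in all groups gave 3 to 6 members with topotecan, 3 to 8 with OL9-119, 5 to 9 with the combination, 4 to 8 in the combination minus topotecan, 2 to 4 in the combination minus OL9-119, 0 to 4 for DMSO, 29 to 32 for C6 minus F7, 29 to 31 for C6 minus G6 and 23 to 28 for F7 minus G6. Leaving out 1 library gave 3 to 7, 8 to 11, 7 to 14, 5 to 12, 3 to 5, 0 to 3, 30 to 34, 30 to 32 and 25 to 29 in the same order. Topotecan gave 5 without C6 topotecan replicate 1 or C6 DMSO replicate 3, and 7 without G6 DMSO replicate 4. The combination gave 7 or 8 without any 1 of 18 libraries (C6 combination 1, C6 OL9-119 2 and 3, C6 DMSO 4, F7 combination and F7 OL9-119 1 to 4, F7 topotecan 2 and 4, G6 combination 1, 3 and 4, and G6 OL9-119 4), in 17 of which TMM took C6 combination replicate 2 as its reference, which shifted the scale of that comparison by 0.0221 to 0.0241 (log2). The combination minus topotecan gave 12 without C6 combination replicate 3, and the combination minus OL9-119 gave 5 without that library or G6 OL9-119 replicate 4. DMSO gave 0 without G6 untreated 2, F7 untreated 1, F7 DMSO 1 or C6 untreated 3, 3 without C6 untreated 2 or G6 untreated 4, and 2 without C6 DMSO 4 or G6 DMSO 4. In C6 minus F7, 3 members changed sign: without low-detection libraries ENO2 gave 0.041 (adjusted p = 0.566, edgeR) and HIF1A -0.011 (adjusted p = 0.846), and with DMSO libraries alone KDM3A gave 0.057 (adjusted p = 0.697).

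Same-numbered libraries of a clone had a mean correlation of 0.0818 over 120 pairs, with 46 over 0.1, against -0.0231 over 360 pairs of different number, with 36 over 0.1. All pairs were over 0.1 for numbers C6 3 (lowest 0.167), G6 1 (0.124) and G6 4 (0.210). Of 60 libraries, 35 correlated best with their own number, a hint that some numbers pair libraries. The library numbers in the titles also often run in sequence over the treatments of a clone and replicate number. What they stand for is not stated. As not every pair was over 0.1 and the labels state no pairing, the fit without the block was kept. Under the block OL9-119 gave 13 and the combination 15.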
